A study of Mus musculus with 7 samples.

Results

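Mammary glands of C57 mice kept in organ culture for 24 days without the carcinogen 7,12-dimethylbenz[a]anthracene (DMBA) were compared with glands of the same strain kept for 10 days, also without DMBA. Each time point was measured on 1 CodeLink Mouse Whole Genome array, a 1-colour array of oligonucleotide probes, so that 2 of the 7 arrays of the series entered the comparison. A gene was taken where the scanner software had called its spot good, that is, above background and free of defects, on both arrays. Of 34967 gene probes, 22495 met this, and they named 10548 of the 13971 genes that the array could name. A normalized intensity is the spot's mean signal less its local background, divided by the median of all gene probes on that array, and a difference is the log2 ratio of 24 over 10 days. With 1 array at each time there is no replicate error, so no difference given here has a replicate check and no p-value is given.

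The study concerned the part that the estrogen receptors play in the growth of the mammary gland and in its response to DMBA. The mice of both groups were 4-week-old wild-type C57 females, and neither group received DMBA. Glands were cultured in serum-free medium for 10 days with insulin and prolactin at 5 µg/ml each, and with hydrocortisone and aldosterone at 1 µg/ml each, called growth promotion, and then with insulin alone (5 µg/ml) for 14 days, called regression. The 10-day group thus stands at the end of growth promotion and the 24-day group at the end of regression. For the pretreatment of the mice, the sample descriptions name 9 days of estradiol (1 µg) with progesterone (1 mg), and in another place 5 days of epidermal growth factor (25 ng) with progesterone (1 mg). Which of these the mice of either group received is not stated for them. Pooling of RNA from 5 mice is described for the wild-type and knockout groups of the study, and whether it holds for both time points is not stated. A cultured gland holds its fat pad, stroma, vessels and immune cells beside the epithelium, and in RNA of whole glands fewer cells of a type and less RNA per cell cannot be told apart.

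In the mammary gland, prolactin acts through its receptor and the kinase JAK2 on the transcription factor STAT5, which with the glucocorticoid receptor switches on the casein genes, the main milk proteins. Withdrawal of these hormones, at weaning or in culture, is known for loss of secretory epithelium, remodelling of matrix by proteases, and refilling of the fat pad. Glucocorticoids also act directly on a set of genes in most cells, among them Fkbp5, Tsc22d3 and Sgk1.

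Both arrays were close in depth of signal. Good spots made up 70.8% of gene probes at 10 days and 71.2% at 24 days, and the median intensity of gene probes was 46.6 and 44.9 over a median local background of 82 and 83. Precision is limited by the number of arrays. Probes for the same transcript differed in their log2 ratio with an SD of 0.23, measured over 1084 probes of 530 accessions.

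The 10-day array stood nearer to arrays of another strain than to the array it is compared with. Of the probes good on both arrays of a pair, 1.84% differed by more than 2-fold between the C57 10-day array and that of BALB/c glands cultured for 24 days, and 1.98% between it and that of BALB/c glands given vitamin D5. The share was 4.57% between the C57 10-day and 24-day arrays, and 9.26% and 7.22% between the C57 24-day array and those same BALB/c arrays. Probes that set both BALB/c arrays apart from the other 4 arrays of C57 or knockout glands, by over 4-fold and without use of the 10-day array, numbered 82. The 10-day array lay on the BALB/c side for 8 of the 8 that were brighter in BALB/c and for 70 of the 74 that were dimmer there. The 8 include Stfa3, Cstdc6, Defb3 and a probe of Tk1, which are among the falls and bounds described below. The 74 include genes of fat cells, such as Lep, Car3 and Adipoq, so that strain and cell makeup cannot be told apart from these probes. Rises described below that are also among the 74 include Cyp2e1, Gpx3, Ccdc80, Cdo1, Fhl1, Serpina3n, C1qa, C1qb, C1qc, Emcn, Igf1, Nrg4, Cav1 and Vim. Every result below rests on the arrays as labelled.

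Over all gene probes good on both arrays, 1027 differed by more than 2-fold, which is 4.57% of them. Of these, 384 were higher at 24 days (1.71%) and 643 were lower (2.86%). Counted as genes, with 1 probe for each symbol, 497 of 10548 differed (4.71%), 245 higher (2.32%) and 252 lower (2.39%). The excess of lower probes thus lay in probes without a gene name, of which 131 were higher and 384 lower. The median log2 ratio was 0.09 over probes and 0.15 over genes. At the threshold, Myh11 was the lowest rise counted (log2 ratio 1.0004) and Lyz1 the highest ratio left out (0.99984), while Arntl2 was the smallest fall counted (-1.00025) and Ctf1 the lowest ratio left out (-0.999). Below, "rose" and "fell" mean a difference of more than 2-fold, higher and lower at 24 days. The gene lists were written by hand with earlier results of these data known. Their shares beside those of all genes are therefore descriptions and no test of enrichment.

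**Figure D1:**
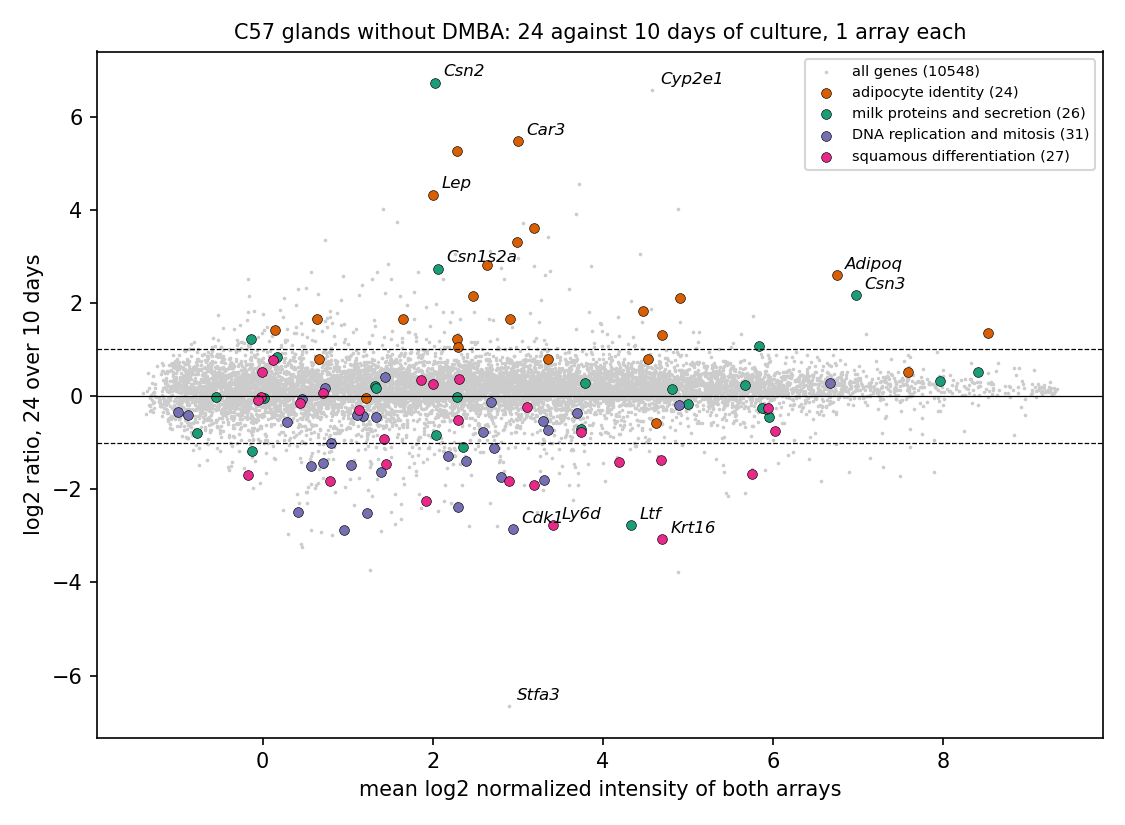
Each point is 1 gene of the 10548 measured on both arrays, with its mean log2 normalized intensity on the x axis and its log2 ratio of 24 over 10 days on the y axis. Dashed lines mark 2-fold and the solid line 0. Members of 4 gene lists are coloured: 22 of 24 fat cell genes lie above 0, up to 5.48, genes of replication and of squamous epithelium lie mostly below 0, and milk genes lie on both sides, with Csn2 at 6.73 and Ltf at -2.76.

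Of the 5 caseins measured, 3 (Csn2, Csn1s2a and Csn3) stood higher on the array labelled 24 days by more than 2-fold, although the stated medium held no prolactin or hydrocortisone at that time. The promoters of Csn2 and Csn1s2a are shown first, since both hold TTCNNNGAA, the sequence that STAT5 binds. Csn3 had no promoter among those available, so it was not searched for the motif. The sequences run from 250 bases before to 50 bases after the start site, are RefSeq's for the GRCm38.p6 build, are written in the direction of transcription, and carry the motif in capitals. That of Csn2 lies at chr5:87699376-87699675 on the minus strand and that of Csn1s2a at chr5:87774200-87774499 on the plus strand.
Csn2: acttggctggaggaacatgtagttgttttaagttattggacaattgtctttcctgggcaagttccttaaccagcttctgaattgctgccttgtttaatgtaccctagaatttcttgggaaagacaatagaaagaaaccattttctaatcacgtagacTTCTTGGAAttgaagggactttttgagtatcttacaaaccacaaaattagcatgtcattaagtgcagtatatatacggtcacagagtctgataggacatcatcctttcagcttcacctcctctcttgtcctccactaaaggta
Csn1s2a: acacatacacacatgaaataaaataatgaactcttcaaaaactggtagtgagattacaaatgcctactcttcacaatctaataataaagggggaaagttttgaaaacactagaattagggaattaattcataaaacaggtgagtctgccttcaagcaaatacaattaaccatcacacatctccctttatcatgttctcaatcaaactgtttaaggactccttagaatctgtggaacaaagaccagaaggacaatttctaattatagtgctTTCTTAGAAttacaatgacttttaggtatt
The match begins 93 bases before the start site in Csn2, and 20 bases after it in Csn1s2a. Csn1s1, which did not rise, holds a match as well, beginning 100 bases before its start site. On either strand, this motif was in 8.30% of 32851 promoters of the table, and in 6 of the 19 milk genes that were measured and had a promoter there. Among the milk genes over 2-fold it was in 3 of 6, namely Csn1s2a, Csn2 and Pigr, and the last of these fell. A match is a run of letters and was not tested as a site.

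Csn2, which encodes beta-casein, had a normalized intensity of 0.40 at 10 days and 41.9 at 24 days, a rise of 106-fold. The 10-day value lies close to the lowest good value of that array, 0.301, so the size of the ratio is imprecise. Csn1s2a, an alpha-S2 casein, went from 1.62 to 10.8, a log2 ratio of 2.73. Csn3, the kappa-casein that keeps casein micelles in suspension, was already bright at 10 days, at 59.2, and reached 265.9 at 24 days, a log2 ratio of 2.17. These 3 were therefore raised together, but the other caseins were not: Csn1s1, the alpha-S1 casein, was at 17.04 and 10.5 (log2 ratio -0.70), and Csn1s2b was at 2.30 and 2.69 (0.23).

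Other milk genes moved both ways. Trf, the iron carrier transferrin that mammary epithelium secretes, rose from 39.1 to 82.8 (log2 ratio 1.08), and Lao1, an amino acid oxidase of milk, rose from 0.60 to 1.39 (1.22). Ltf, the iron-binding milk and neutrophil protein lactoferrin, fell from 52.6 to 7.73, a log2 ratio of -2.76. Pigr, which carries immunoglobulin across the epithelium, fell from 1.37 to 0.61 (-1.18), and Aqp5, a water channel, fell from 7.51 to 3.49 (-1.10). Lalba, the alpha-lactalbumin that lactose synthesis needs, was at 5.46 and 3.07, a log2 ratio of -0.83 that stayed within 2-fold. Of the 26 milk genes measured, 5 rose, 3 fell and 18 stayed within 2-fold, against 2.32% and 2.39% of all genes, and the median of the list was 0.07. With normexp background correction, which adds an offset to each intensity, 4 rose and 1 fell.

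The rest of the secretory apparatus differed little in level. Genes of the fat droplet of milk were at 46.6 and 55.0 for Btn1a1, a membrane protein of the milk fat globule (log2 ratio 0.24), at 12.6 and 15.3 for Xdh, its binding partner xanthine dehydrogenase (0.28), and at 283.3 and 407.0 for Plin2, the coat protein of lipid droplets (0.52). Mfge8, which tags dying cells and milk fat globules, was at 66.1 and 54.7 (-0.27). Spp1, the secreted matrix protein osteopontin, was at 222.3 and 276.7 (0.32), and Muc1, a mucin of the luminal surface, was at 34.0 and 30.1 (-0.18). Folr1, a folate receptor, was at 72.2 and 53.2 (-0.44), and the galactosyltransferase gene B4galt1, whose product is the other subunit of lactose synthase, was at 26.5 and 29.6 (0.16). Lpo, an antibacterial peroxidase, was at 0.84 and 1.499 (0.83), and Cel, a milk lipase, was at 0.77 and 0.44 (-0.80). The remaining members, Glycam1, Tph1, Slc34a2, Slc12a2 and Pthlh, had log2 ratios between -0.26 and 0.17.

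Of 24 genes on the glucocorticoid response list, 7 were higher at 24 days by more than 2-fold and 16 stayed within it. The list holds mostly targets of the receptor, but also its gene Nr3c1 and the enzyme gene Hsd11b1, which rose (1.27). Klf9 (1.13) and Glul (1.33) rose too, and Glul is among the 74 probes dimmer in BALB/c. Hsd11b1, Klf9 and Glul were named after their values were seen. Fkbp5, a chaperone that damps the receptor, rose from 1.25 to 5.82, a log2 ratio of 2.21. Rasd1, a small GTPase induced by dexamethasone, rose from 0.95 to 2.91 (1.62), and Tsc22d3, the leucine zipper protein GILZ, rose from 17.3 to 51.9 (1.59). Sgk1, a kinase under both glucocorticoid and mineralocorticoid control, rose from 9.09 to 26.9 (1.57). The only member that fell was Saa3, an acute-phase apolipoprotein, which went from 93.2 to 21.2 (-2.14). The rises were 29.2% of the members, against 2.32% of all genes, and the median was 0.33 against 0.15 over all genes. With normexp background correction 4 rose and 1 fell. The glucocorticoid response element lay in 0.222% of all promoters and in 3 of the 18 members with a promoter, which were Sgk1, Mt1 and Map3k6. Among members that rose it was in 1 of the 6 with a promoter, Sgk1, while Mt1 and Map3k6 stayed within 2-fold.

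Genes that aldosterone and prolactin act on gave fewer changes. Scnn1a, the alpha subunit of the epithelial sodium channel, rose from 11.6 to 25.7 (log2 ratio 1.15). Together with Sgk1 it made 2 of 12 in the aldosterone and sodium list, which is 16.7% against 2.32% of all genes. Socs2, a STAT5-induced inhibitor of cytokine signals, rose from 4.75 to 16.3 (1.78), and Ccnd1, the cyclin D1 through which prolactin drives growth of alveoli, fell from 2.85 to 0.77 (-1.88). These were the only changes among the 15 prolactin and STAT5 genes measured, whose median was 0.08. Each made 6.67% of that list, against 2.32% of all genes higher and 2.39% lower. Tnfsf11, the cytokine RANKL that progesterone and prolactin induce, was near background at 10 days and at 5.46 at 24 days, so that it was at least 18.1-fold higher at 24 days.

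The receptors of the culture hormones stayed within 2-fold, where the share over all genes, 4.71%, would give few calls or none. Prlr, the prolactin receptor, was at 2.52 and 4.95 and lay just under the threshold with a log2 ratio of 0.97. Nr3c1, the glucocorticoid receptor, was at 0.78 and 0.87 (0.16), Insr, the insulin receptor, was at 0.77 and 0.70 (-0.13), and Igf1r was at 1.47 and 1.41 (-0.06). Pgr, the progesterone receptor, was at 0.62 and 0.98 (0.68). Egfr was at 3.87 and 3.09 (-0.32), Erbb2 at 3.83 and 2.92 (-0.39) and the thyroid hormone receptor Thrb at 0.86 and 0.98 (0.19). Of 11 such genes on the array, 8 were measured at both times and 2 at neither, and Esr2, the gene of ERβ, was good at 24 days only, with a bound of at least 2.20-fold.

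On the other wild-type arrays, Csn2, Fkbp5 and Tsc22d3 were high in C57 glands with DMBA and low in both BALB/c groups. Csn2 was at 55.3 on the array of C57 glands cultured for 24 days with DMBA, at 0.33, near background, on the BALB/c array and at 1.32 on that with vitamin D5. Fkbp5 was at 10.9, 0.83 and 1.13 on the same arrays, and Tsc22d3 was at 133.2, 17.3 and 17.7. The C57 10-day value lay beside the BALB/c values for both of the latter, and the C57 24-day value lay between them and the value with DMBA. Ltf ran the other way, at 11.3, 32.8 and 96.5. Sgk1 and Socs2 differed from this pattern, since with DMBA they were at 14.3 and 8.72, below their C57 24-day values of 26.9 and 16.3. Sgk1 was at 4.68 on the BALB/c array and at 10.4 on that with vitamin D5, and Socs2 at 2.87 and 3.52.

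**Figure D2:**
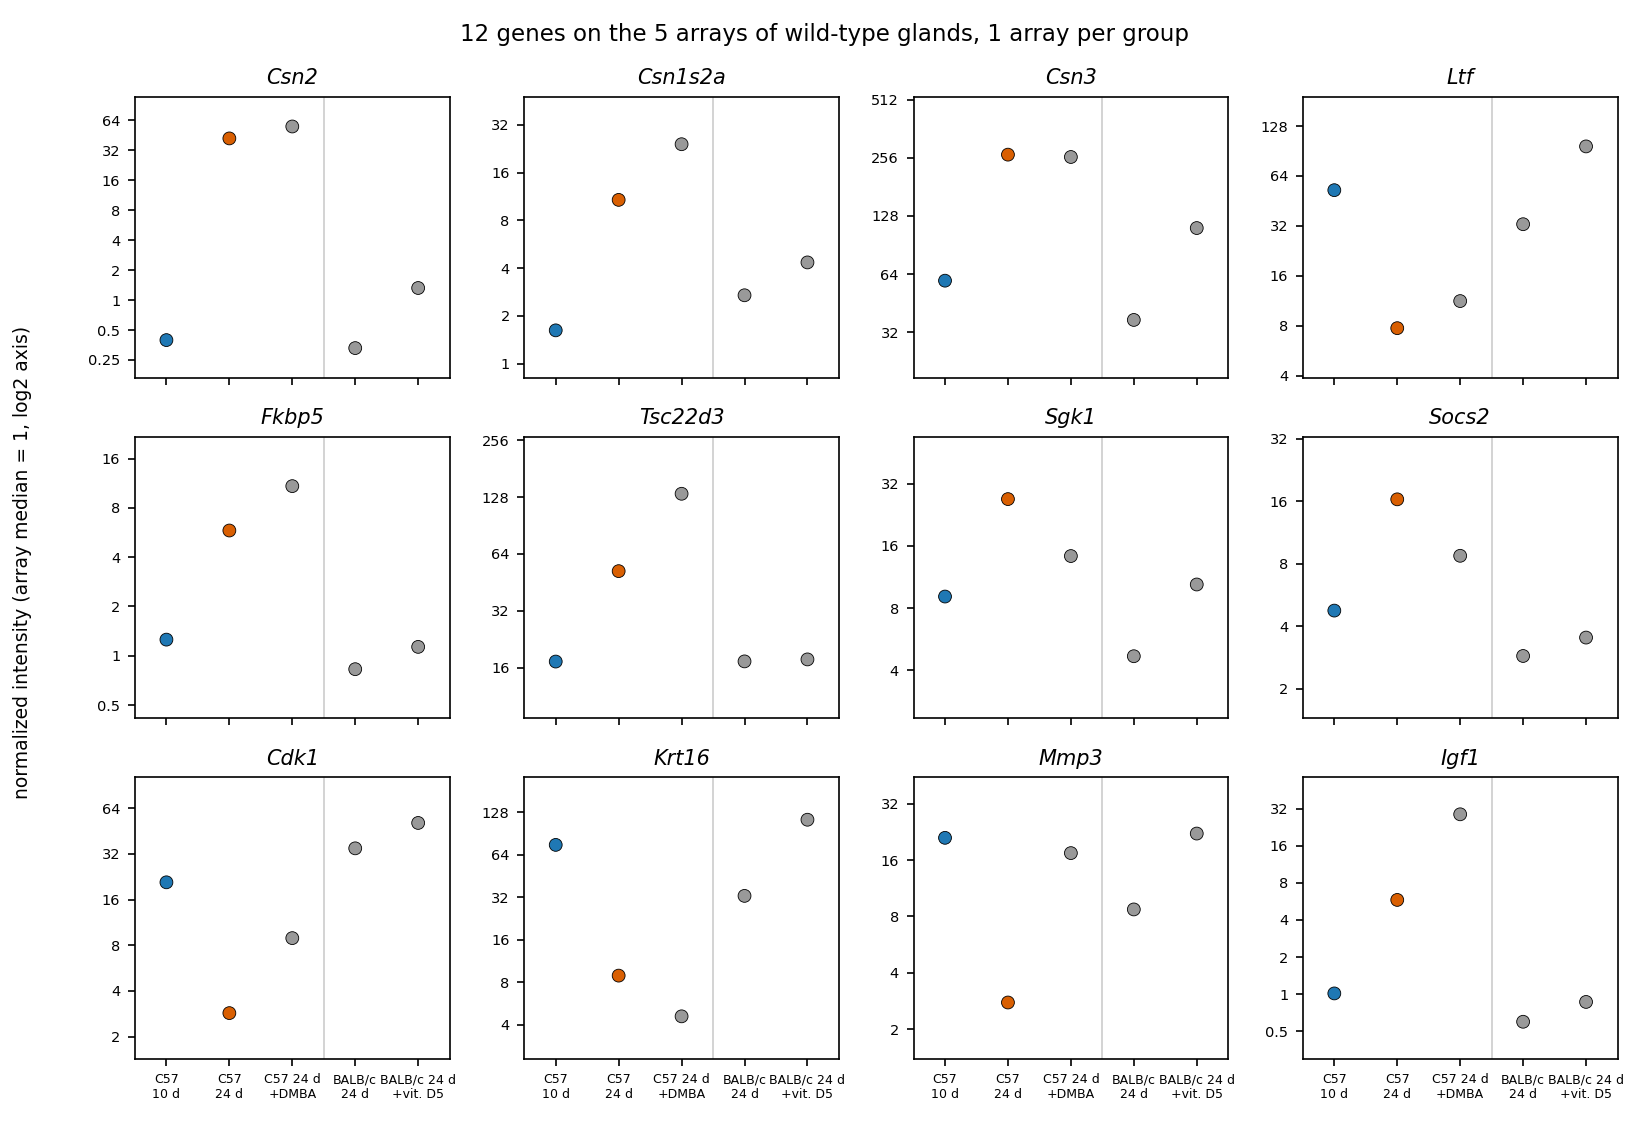
Normalized intensity (log2 axis, array median 1) of 12 genes on the 5 arrays of wild-type glands, 1 array per group, with the C57 10-day array in blue, the C57 24-day array in orange, and a grey line between the strains. Csn2 stands at 0.40 and 41.9 on the first pair and at 0.33 and 1.32 in BALB/c, and Cdk1 and Krt16 are lower on both C57 24-day arrays than on the 10-day and BALB/c arrays.

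Fat cell genes made up the largest group of rises. Of 24 members measured, 18 rose and none fell, which is 75% against 2.32% of all genes, and the median log2 ratio was 1.65. Car3, a carbonic anhydrase abundant in fat, went from 1.20 to 53.6 (log2 ratio 5.48), and Pck1, the phosphoenolpyruvate carboxykinase that feeds glycerol synthesis in fat, went from 0.78 to 30.2 (5.27). The hormone genes Lep, for leptin, and Retn, for resistin, rose from 0.90 to 17.9 (4.32) and from 2.61 to 31.7 (3.61). Cfd, the complement factor adipsin, rose from 2.52 to 24.8 (3.30). Adipoq and Fabp4, named here after their values were seen, rose from 43.7 to 265.0 (2.60) and from 230.1 to 584.5 (1.34), so fat cell RNA was plain on both arrays. The summed normalized intensity of the 24 genes was 562.4 at 10 days and 1515 at 24 days, and it was 2975 on the C57 array with DMBA and 515.8 and 413.7 on the BALB/c arrays.

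Of 25 genes of fatty acid and triglyceride synthesis measured, 4 rose and none fell, which is 16% against 2.32% of all genes. Acsl1, which activates fatty acids, rose from 2.33 to 16.5 (log2 ratio 2.82), Thrsp, which promotes lipogenesis in liver, fat and mammary gland, rose from 2.68 to 11.8 (2.14), Gpd1, a glycerol phosphate dehydrogenase, rose from 4.23 to 13.2 (1.65), and Dgat2, which makes triglyceride, rose from 3.39 to 7.06 (1.06). Of these 4, 3 are also on the list of fat cell genes, the exception being Thrsp. The other 21 of the 25 measured stayed within 2-fold, with a list median of 0.21 against 0.15 over all genes. None of 21 genes of cholesterol synthesis passed 2-fold, where the share over all genes, 4.71%, would give few or none.

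Other genes among the 15 largest rises were not on the fat cell list. Cyp2e1, a cytochrome P450, went from 2.44 to 231.9 (log2 ratio 6.57), the second largest rise after Csn2. Gpx3, the secreted glutathione peroxidase, went from 2.72 to 64.1 (4.56), and Cdo1, a cysteine dioxygenase, from 3.13 to 33.2 (3.41). Ccdc80, a secreted protein of fat and stroma, went from 7.32 to 119.0 (4.02), and Fhl1, a LIM domain protein of muscle, from 0.67 to 10.7 (4.00). Serpina3n, a serine protease inhibitor, rose from 2.30 to 30.2 (3.72), and Defb1, an antimicrobial defensin, from 3.32 to 49.9 (3.91). Aqp11, a water channel, rose from 0.82 to 10.95 (3.74), and Sprr2f, a small proline-rich protein that estrogen induces in uterus, from 0.52 to 5.29 (3.34).

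Markers of macrophages, vessels and stroma rose in smaller numbers. The 3 chains of complement C1q, which tissue macrophages make, rose side by side, C1qa from 2.86 to 22.4 (log2 ratio 2.97), C1qb from 2.67 to 18.0 (2.75) and C1qc from 1.66 to 13.7 (3.05). Marco, a scavenger receptor, rose from 1.01 to 2.81 (1.48). Mmp12, the macrophage elastase, fell from 6.02 to 2.99 (-1.01). Of 22 macrophage genes, 6 rose (27.3%) and 1 fell (4.55%), against 2.32% and 2.39% of all genes, with a median of 0.76 and a summed level of 299.7 at 10 days and 435.5 at 24 days. With normexp background correction 3 rose and 0 fell.

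Among 14 endothelial genes, 3 rose, which is 21.4% against 2.32% of all genes, and none fell, with a median of 0.63. Emcn, the sialomucin endomucin, went from 0.59 to 3.74 (log2 ratio 2.67), Cldn5, the claudin of endothelial tight junctions, from 1.03 to 4.66 (2.18), and Esam, an adhesion molecule, from 7.79 to 21.2 (1.45). Their summed level was 24.6 and 49.5. A further 5 endothelial genes were good at 24 days only and none at 10 days only, beside 712 and 541 over all named genes. Such genes passed the filter on 1 array alone and are not counted as rises. With normexp background correction the median was 0.27.

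Of 25 genes of fibrillar collagen and stroma, 7 rose (28%) and 2 fell (8%), against 2.32% and 2.39% of all genes, with a median of 0.60. Col6a1, a chain of collagen VI, went from 0.61 to 2.17 (log2 ratio 1.84), Dpt, the matrix protein dermatopontin, from 0.65 to 2.12 (1.70), Loxl1, which crosslinks elastin, from 3.44 to 7.28 (1.08), and Ccn2, the growth factor CTGF, from 10.98 to 23.0 (1.07). Dcn, the collagen-binding proteoglycan decorin, fell from 8.61 to 2.28 (-1.92), and Fn1, fibronectin, from 7.16 to 3.21 (-1.16). In C57 glands at 24 days with DMBA, Dcn and Fn1 stood above their 10-day values, at 43.6 and 26.4. Most of the 7 rises lay near the threshold, since 3 were over 2-fold after quantile normalization, 2 after cyclic loess and 0 after normexp. The median was then 0.47, 0.45 and 0.42.

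For other cell types no gene measured on both arrays passed 2-fold, where the share over all genes, 4.71%, would give few or none. This held for 11 T and B lymphocyte genes, 9 skeletal muscle genes, 5 erythroid genes and 11 genes of nerve and Schwann cells, and their summed levels at 10 and 24 days were 27.2 and 29.8, 17.8 and 17.3, 8.44 and 12.0, and 100.8 and 128.3. The erythroid sum was thus 1.42 times as high at 24 days, beside 1.45 times for macrophage and 1.39 times for stromal genes. Some members were good on 1 array only, and those given here were all named after their values were seen. The lymphocyte gene Blk was at least 3.96-fold, the muscle gene Actn2 at least 2.69-fold and the Schwann cell gene Pou3f1 at least 2.05-fold higher at 24 days. The B cell gene Cd79b was at least 2.06-fold and the muscle gene Pgam2 at least 2.04-fold higher at 10 days. None of the 25 luminal epithelial genes passed 2-fold either, with a median of 0.02 and summed levels of 2183 and 2389, so that the labelled tissue showed its epithelial markers on both arrays. The part of fat, macrophage, vessel and stromal cells in any other difference was not tested.

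**Figure D3:**
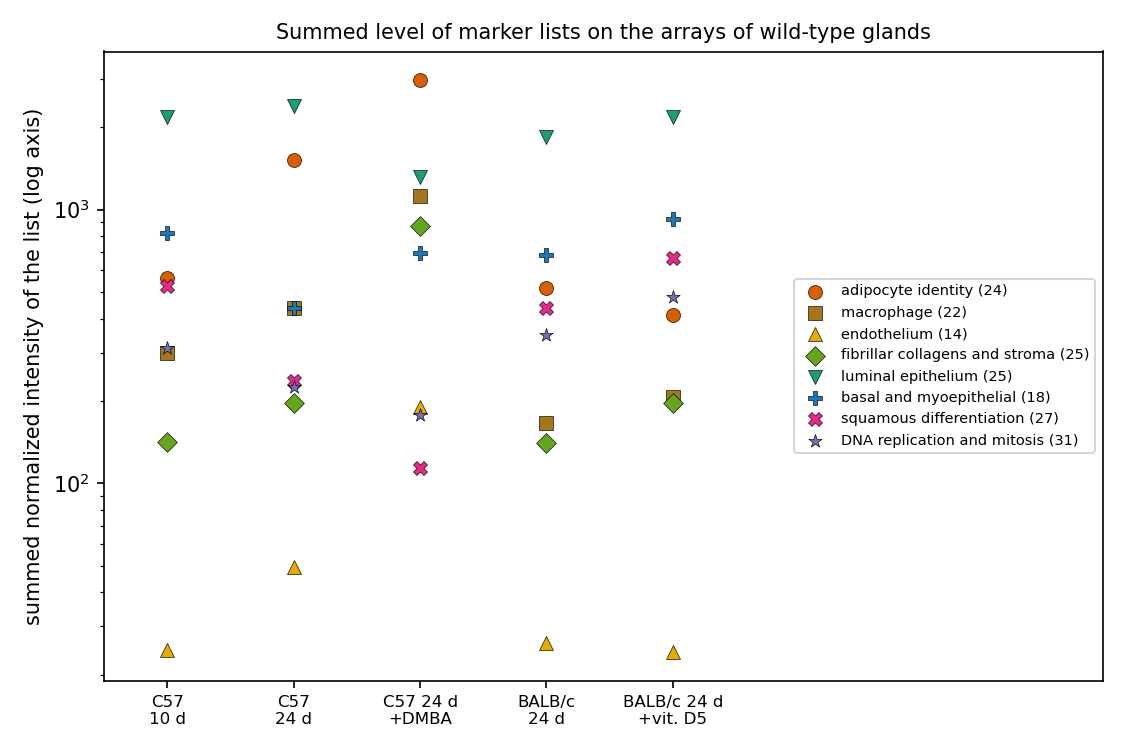
Summed normalized intensity (log axis) of 8 gene lists on the 5 arrays of wild-type glands, 1 point for each array, with the number of genes in brackets. Fat cell genes go from 562.4 to 1515 between the C57 10-day and 24-day arrays and endothelial genes from 24.6 to 49.5, luminal genes stay at 2183 and 2389, and squamous genes go from 526.7 to 237.4.

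Genes on the basal and myoepithelial list split, and which cells of the gland gave their RNA was not tested. Krt5, the keratin that defines basal cells, fell from 418.4 to 134.7 (log2 ratio -1.64), Trp63, the transcription factor p63 that maintains them, from 21.5 to 7.49 (-1.52), and the keratins Krt14 and Krt17 from 223.3 to 89.2 (-1.32) and from 39.2 to 16.0 (-1.29). The 4 members that rose were Cav1, of caveolae, going from 9.84 to 40.8 (2.05), Cnn1, the smooth muscle calponin, from 2.65 to 7.92 (1.58), Vim, vimentin, from 20.8 to 53.6 (1.37), and Myh11, smooth muscle myosin, from 3.00 to 6.001 (1.00). The contractile genes Acta2 (log2 ratio 0.21), Tagln (0.78), Lmod1 (0.52) and Smtn (-0.10), named after their values were seen, stayed within 2-fold. In all, 4 of 18 rose (22.2%) and 5 fell (27.8%), against 2.32% and 2.39% of all genes, and the median was -0.11.

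Squamous epithelium is the keratinizing type that lines skin and appears in mammary metaplasia. Of 27 genes measured on the squamous list, 11 fell at 24 days and none rose. The falls were 40.7% of these genes, against 2.39% of all genes, and their median was -0.76. Their summed level was 526.7 at 10 days, 237.4 at 24 days and 113.9 at 24 days with DMBA. In BALB/c glands, also cultured for 24 days, it was 438.7, and 667.8 with vitamin D5. Krt16, a keratin of activated keratinocytes, fell from 75.02 to 8.89 (log2 ratio -3.08), and Ly6d, a surface protein of stratified epithelium, from 27.8 to 4.07 (-2.77). Klk10, a kallikrein protease, fell from 8.26 to 1.73 (-2.25), and Sprr1b, a precursor of the cornified envelope, from 17.6 to 4.70 (-1.90). The envelope genes Lor and Tgm1, named after their values were seen, were at 1.60 and 1.67 (0.06) and at 0.99 and 0.98 (-0.02). A further 5 squamous genes were good at 10 days only and 2 at 24 days only, beside 541 and 712 over all named genes. Such genes passed the filter on 1 array alone and are not counted as rises or falls. The counts hold for the list as written and not for every squamous gene. Sprr2f, a small proline-rich gene like the members Sprr1b and Sprr2h, was not on the list and rose, as given above. Lce3f and Serpinb3b, also not on the list, fell, as given below.

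Other genes among the 15 largest falls were not on the squamous list. The largest fall of all was that of Stfa3, a stefin A inhibitor of cysteine proteases, which was at 74.6 at 10 days and 0.74 at 24 days, a 101-fold difference and a log2 ratio of -6.66. Stfa3 was at 29.1 on the BALB/c array, at 117.0 on that with vitamin D5, and at 0.14, near background, in C57 glands with DMBA. Cstdc6, another gene of the stefin A cluster, fell from 109.1 to 7.93 (-3.78). The stefin A genes are near copies, so that their probes may share signal. Lce3f, of the late cornified envelope, fell from 4.95 to 0.62 (-2.99), and Serpinb3b, a serpin of squamous cells, from 4.42 to 0.58 (-2.92). S100a9, a calcium-binding alarmin of neutrophils and stressed epithelium, fell from 4.24 to 0.45 (-3.25), Vnn3, a pantetheinase, from 8.76 to 0.66 (-3.74), and Serpinb1a, an inhibitor of neutrophil elastase, from 7.17 to 0.96 (-2.90).

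Of 31 genes of DNA replication and mitosis measured, 14 fell at 24 days and none rose, which is 45.2% against 2.39% of all genes, and the median was -0.77. Their summed level was 311.9 at 10 days, 225.1 at 24 days and 177.1 at 24 days with DMBA. In BALB/c glands, also cultured for 24 days, it was 347.9, and 479.6 with vitamin D5. Cdk1 and its partner Ccna2, the kinase and cyclin A that carry cells into mitosis, fell from 20.8 to 2.86 (log2 ratio -2.86) and from 5.24 to 0.71 (-2.88). Tk1, a thymidine kinase of S phase, fell from 5.61 to 0.98 (-2.52), with -2.38 by its other good probe, and Top2a, the topoisomerase of dividing cells, from 3.18 to 0.56 (-2.50). Also among the 15 largest falls were E2f8, a repressor of the late cell cycle, from 4.10 to 0.46 (-3.17), the kinesin gene Kif18b from 4.01 to 0.54 (-2.88), the mitotic gene Depdc1a from 3.43 to 0.44 (-2.96), and Pclaf, a partner of PCNA, from 14.2 to 2.04 (-2.80). Some members did not move: Pcna, the sliding clamp, was at 91.8 and 112.1 (0.29) and Mcm7, of the replicative helicase, at 2.35 and 3.13 (0.41), both chosen after their values were seen. Among 16 CDK inhibitors, D cyclins and growth arrest genes, none rose and 2 fell (12.5% against 2.39% of all genes). They were Ccnd1 and Gas1, a growth arrest gene that went from 8.15 to 3.33 (-1.29).

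The promoter of Cdk1 is shown with the E2F-type motif searched, TTTCGCGC or TTTGGCGC. It lies at chr10:69352863-69353162 on the minus strand of GRCm38.p6, with the match beginning 131 bases before the start site. That of Mmp3, described next, lies at chr9:7445572-7445871 on the plus strand, with TGANTCA, the motif of the AP-1 factors, beginning 46 bases before the start site. Both are RefSeq sequences with the motif in capitals.
Cdk1: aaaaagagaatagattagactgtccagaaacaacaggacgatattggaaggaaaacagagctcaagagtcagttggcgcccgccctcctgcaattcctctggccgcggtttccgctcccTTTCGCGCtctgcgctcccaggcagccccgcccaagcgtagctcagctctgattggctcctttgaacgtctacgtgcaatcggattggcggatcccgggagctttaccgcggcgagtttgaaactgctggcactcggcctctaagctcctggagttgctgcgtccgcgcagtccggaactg
Mmp3: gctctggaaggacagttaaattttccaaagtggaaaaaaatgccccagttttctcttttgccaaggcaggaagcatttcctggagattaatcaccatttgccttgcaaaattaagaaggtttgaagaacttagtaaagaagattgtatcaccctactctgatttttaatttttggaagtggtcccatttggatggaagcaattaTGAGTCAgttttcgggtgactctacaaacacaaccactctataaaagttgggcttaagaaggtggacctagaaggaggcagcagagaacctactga
The E2F-type motif, on either strand, was in 0.813% of all promoters, in 1.62% of those of the 8456 measured genes that had one, and in 6 of the 26 replication genes with a promoter, and among those that fell in 2 of 12, Cdk1 and Mcm5. TGANTCA was in 7.81% of all promoters and in 5 of 16 protease genes with a promoter, and among those that fell in 2 of 4, Mmp3 and Mmp12.

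Of 20 matrix proteases and inhibitors measured on both arrays, 5 fell and none rose, which is 25% against 2.39% of all genes, with a median of -0.64. Mmp3, the stromelysin that cleaves basement membrane, fell from 21.1 to 2.77 (log2 ratio -2.92). Adamts15, which cleaves proteoglycans, fell from 10.2 to 2.09 (-2.29), and Serpine2, an inhibitor of thrombin and urokinase, from 99.1 to 30.0 (-1.72). In C57 glands at 24 days with DMBA, Mmp3 was at 17.4, Adamts15 at 9.04 and Serpine2 at 36.3. The summed level of the list was 243.8 at 10 days, 134.7 at 24 days and 251.1 at 24 days with DMBA. It was 166.4 on the BALB/c array and 215.1 on that with vitamin D5. With normexp background correction 3 fell and the median was -0.33. Of members good at 24 days only, the inhibitor gene Timp4 was at least 7.27-fold and Mmp19 at least 2.14-fold higher there, both named after their values were seen. In the basement membrane, Lamb3, a laminin chain of epithelial anchorage, fell from 18.7 to 8.43 (-1.15) and Col18a1 from 7.36 to 3.37 (-1.13), while Col4a2, a chain of collagen IV, rose from 2.02 to 5.26 (1.38).

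Of 35 genes known from involution after lactation, 3 rose (8.57%) and 5 fell (14.3%), against 2.32% and 2.39% of all genes, and the median was -0.08. Orm1 and Lbp, acute-phase proteins, rose from 12.7 to 38.3 (log2 ratio 1.60) and from 2.82 to 8.86 (1.65), and Lgmn, a lysosomal protease, rose from 5.24 to 10.7 (1.03). Igfbp5, the binding protein that is induced early in involution and holds IGF away from its receptor, fell from 325.7 to 99.3 (-1.71), with -1.51 by its other good probe. Tgfb3, a TGF-beta of the involuting alveolus, fell from 70.7 to 25.5 (-1.47). In C57 glands at 24 days with DMBA, Igfbp5 was at 311.9, Tgfb3 at 42.5 and Saa3 at 108.5, against 93.2 for Saa3 at 10 days. Orm1, Lbp and Lgmn, which rose, were at 109.9, 5.12 and 29.3 there. Members that rose and fell thus included genes of the same acute-phase class, with Saa3 down and Orm1 up.

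Innate defence genes spread widely for a list with a median of -0.05. Beside Defb1 and Serpina3n, which rose, Pglyrp1, a peptidoglycan-binding protein, fell from 7.64 to 1.13 (log2 ratio -2.75). The list gave 4 rises (16.7%) and 6 falls (25%) among 24, against 2.32% and 2.39% of all genes. Of the chemokines and cytokines, 4 of 34 rose (11.8%) and 4 fell (11.8%). Ccl20 fell from 2.76 to 0.51 (-2.44), Il1rn, the interleukin-1 receptor antagonist, from 8.38 to 1.58 (-2.40), and the neutrophil attractants Cxcl5 and Cxcl1 from 16.8 to 5.47 (-1.62) and from 103.8 to 34.8 (-1.58). The 4 that rose were Cxcl15, Ccl5, Ccl9 and Cxcl10, with log2 ratios from 1.07 to 1.37, and with normexp background correction 0 of them were over 2-fold.

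**Figure D4:**
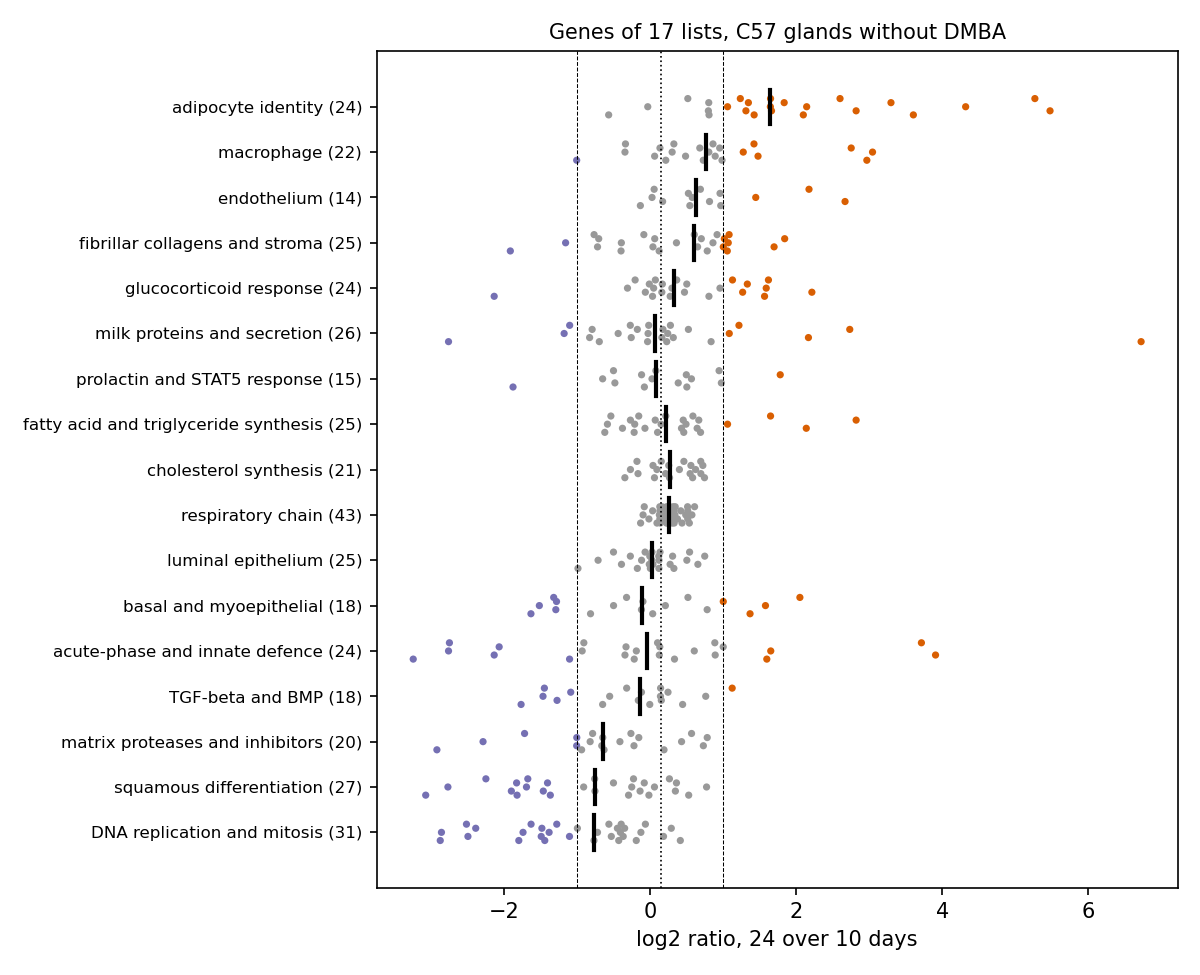
Log2 ratio of 24 over 10 days for the genes of 17 lists, 1 point per gene measured on both arrays, with the number of genes in brackets. Orange points rose and purple points fell by more than 2-fold (dashed lines), black bars are list medians and the dotted line is the median of all genes, 0.15. Medians run from 1.65 for fat cell genes to -0.77 for replication genes, and the milk, acute-phase and basal lists have genes beyond 2-fold on both sides.

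Growth factor genes changed singly. Igf1, the growth factor made mainly by stroma and fat, rose from 1.01 to 5.82 (log2 ratio 2.52), and Igfbp7 rose from 21.7 to 56.3 (1.38), while the other change among 10 genes of this axis was the fall of Igfbp5. Nrg4, a neuregulin secreted by fat, rose from 1.00 to 6.36 (2.66), and Ereg, the ligand epiregulin, fell from 6.08 to 1.63 (-1.90), out of 9 EGF ligands. Rises and falls made 20% and 10% of the IGF axis and 11.1% each of the EGF ligands, against 2.32% and 2.39% of all genes. In the TGF-beta and BMP list, Id3, a target of BMP signals, rose from 13.3 to 28.9 (1.12). Ltbp2, Tgfb3, Fst and Tgfb2 fell, with log2 ratios from -1.77 to -1.28. They were at 4.70, 70.7, 8.23 and 7.41 at 10 days, and at 6.76, 42.5, 2.34 and 2.89 in C57 glands with DMBA. The counts were 1 rise (5.56%) and 5 falls (27.8%) among 18, against 2.32% and 2.39% of all genes. Among 10 Wnt ligands and inhibitors 3 fell (30% against 2.39% of all genes), Wnt10a from 5.01 to 2.15 (-1.22), Sfrp1 from 6.39 to 3.00 (-1.09) and Wnt5b from 2.01 to 0.99 (-1.02). With normexp background correction 0 were over 2-fold.

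Several metabolic and stress lists had no gene over 2-fold, beside a share of 4.71% over all genes. That share would give few calls or none in lists of their size, so this does not set them apart. None of 43 respiratory chain genes, 28 of hypoxia and glycolysis, 27 chaperones, 29 of the NRF2 response, 23 p53 targets or 21 interferon-stimulated genes passed 2-fold, with medians of 0.26, 0.11, 0.24, 0.08, 0.28 and 0.34 against 0.15 over all genes. Of 26 genes of the integrated stress response, Atf3, a transcription factor induced by stress, rose from 2.31 to 5.24 (log2 ratio 1.18), and Fosl1, a partner of AP-1, rose from 8.94 to 18.1 (1.02) among 18 immediate early factors, of which Atf3 is also one. Rises made 3.85% of the stress list and 11.1% of the immediate early list, against 2.32% of all genes. Fosl1 lay under 2-fold after quantile normalization, 75th percentile scaling, cyclic loess and normexp, at log2 ratios between 0.89 and 0.96, and Atf3 did so with normexp (0.87). In the clock, Dbp, an output gene, fell from 9.81 to 2.61 (-1.91) and Cry1, a repressor, rose from 1.22 to 2.49 (1.03), which became 0.97 with 75th percentile scaling and 0.61 with normexp. The hour at which glands were taken is not given. Of 16 genes of the insulin and FOXO response, Pck1 rose (6.25% against 2.32% of all genes) and none fell, with a median of -0.08. Of 5 MHC class II genes measured 1 rose (20%) and none fell, with a median of 0.48. That rise, of Lgmn, lay under 2-fold after quantile normalization, 75th percentile scaling, cyclic loess and normexp, at log2 ratios between 0.87 and 0.97. H2-Aa, an MHC class II chain, was at least 2.89-fold higher at 24 days, and Cd80, a costimulator of T cells, at least 2.92-fold higher at 10 days, both named after their values were seen.

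Probes near background on 1 array have only a bound, which is the good value over the higher of the dim value and the lowest good value of the dim array. Of 2259 probes good at 24 days only, 540 were at least 2-fold higher there, and of 2153 good at 10 days only, 417 were at least 2-fold higher at 10 days. The largest bounds at 24 days were Nkain4, an interactor of the sodium pump, at least 31.8-fold, Sult1a1, a sulfotransferase on the glucocorticoid list, at least 29.7-fold, and then Tnfsf11, Chil3, a chitinase-like protein of macrophages (at least 14.3-fold), and Agtr1a, an angiotensin receptor (at least 14.1-fold). Nkain4 was near background on the other 3 wild-type arrays, while Sult1a1 was at 9.26 with DMBA. The largest at 10 days were Defb3, an epithelial defensin (at least 6.37-fold), Ms4a10 (at least 5.53-fold), Gabrp, a subunit of the GABA receptor found in breast epithelium (at least 4.99-fold), Svopl (at least 4.74-fold) and Nrep (at least 3.72-fold).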

How the data were processed

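RNA of cultured glands had been labelled by the authors and hybridized to CodeLink arrays. The authors deposited for each spot an intensity, which is the spot mean minus the local background median, and a quality flag, and used GeneSpring GX 7.3 for analysis. The deposited normalized intensity and the series table, whose other 5 columns were not used, served as alternatives. Here each intensity was divided by the median of gene probes on its array, as the study did, and log2 ratios were taken over probes good on both arrays (Python 3.11.15, numpy 2.4.6, pandas 2.3.3). Normexp with an offset of 50, quantile normalization and cyclic loess used limma 3.58.1 in R 4.3.3. The counting was checked on simulated data.

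Probes were named through RefSeq's mouse table (GRCm38.p6), which matched 14763 of 15553 probes with a RefSeq accession. Where several probes match a gene, the one with the highest mean log2 value stands for it. Of the 497 genes over 2-fold, only 18 had several good probes, and 2 of these had another good probe of opposite sign. The genes named are the 15 largest rises and falls, up to 4 each way over 2-fold in each of 40 hand-written lists, all measured milk and receptor genes, and the 5 largest bounds each way. Genes named outside this rule, among them Adipoq, Fabp4, Pcna, Mcm7, Lor and Tgm1, were chosen after their values were seen. A list median beyond 0.5 was counted as shifted, which held for 4 lists above and 3 below. Members and lists were chosen with earlier results of these data known. There is 1 array per group, so no difference between groups was tested.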

Additional observations from a re-analysis of the deposited data

How the results depend on the processing

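The counts of probes over 2-fold (1027 in all, 384 higher, 643 lower) stayed within 1.5 times under quantile normalization, 75th percentile scaling, cyclic loess, the deposited normalized intensities and a median over all spots. They were 410, 148 and 262 with normexp, 3367, 1643 and 1724 over probes good on at least 1 array, 6595, 3371 and 3224 with no filter, and 6728, 3448 and 3280 in the series table, where 36034 entries were counted without a filter. Thresholds of 1.5-fold and 3-fold gave 3637, 1859 and 1778, and 304, 119 and 185, and 1 probe per gene gave 497, 245 and 252. The share of calls that were higher moved from 37.4% to 48.8% and 51.1% with the wider filters and to 49.3% per gene. Normexp adds an offset that shrinks ratios of dim probes. Among the genes named, none of the 59 that rose and 52 that fell changed sign under any scaling or background setting run, and between 42 and 59, and 44 and 52, stayed over 2-fold. List medians moved by more than the SD between probes in 3 cases, all with normexp, and by less in the other 277. The 4 lists above 0.5 became 3 after quantile normalization and cyclic loess, where stroma was at 0.47 and 0.45, and 2 with normexp, where stroma was at 0.42 and endothelium at 0.27. With normexp matrix proteases were at -0.33, which left 2 lists below -0.5. No paired analysis was possible because each group has 1 array. Local background near 82, above the median signal, limits dim probes.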
